A study of Homo sapiens with 6 samples.

Results

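The unfolded protein response and the secretory machinery of the endoplasmic reticulum (ER) were followed through 49 genes, picked by symbol from a table of 26364 genes. All 49 were present once and all 49 passed the filter of a mean normalised read count of at least 10. RNA was sequenced from T47D, an established line of human breast cancer of the luminal A type, 48 h after transfection with an siRNA against ELF5 (siELF5, 3 libraries) or with a control siRNA (siNC, 3 libraries). ELF5 belongs to the ETS transcription factors and marks the luminal progenitors of the mammary gland, and the series title asks about its part in epithelial integrity. Each group received 1 siRNA product, and the products carry different catalogue numbers, so every difference compares both products and targets.

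Secreted and membrane proteins enter the ER through the SEC61 channel, lose their signal peptide, are folded by chaperones and disulfide isomerases, and leave in COPII vesicles, while proteins that fail to fold are drawn back to the cytosol for degradation. When unfolded protein builds up, 3 sensors of the ER membrane respond. IRE1 (gene ERN1) splices XBP1 mRNA into the form that encodes an active factor, ATF6 travels to the Golgi and is cut by the proteases MBTPS1 and MBTPS2 to free its transcription factor part. PERK (gene EIF2AK3) slows translation and favours ATF4. XBP1 and the cut ATF6 then switch on chaperone and degradation genes, and luminal breast cells, which secrete proteins in lactation, are known for high XBP1. Gene counts do not separate spliced from unspliced XBP1 mRNA, nor cut from whole ATF6 protein.

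The binding sites of these factors were looked for in the promoter windows of RefSeq (250 bases before to 50 bases after each start, build GRCh38.p14), which held 44 of the 49 members. DERL1, KDELR2, PDIA3, SEC24D and SPCS1 were not searched. The ER stress response element (ERSE), CCAAT, then 9 bases of any kind, then CCACG, on either strand, was found in the windows of 7 of the 44 members and in 0.0769% of all 35116 windows, several of which can belong to 1 gene. The sites are shown because they are the sequence by which ATF6 and XBP1, with the CCAAT-binding factor NF-Y, are known to act on chaperone genes. As chaperone genes were already known to use the element, its larger share among the members is no test of enrichment. The windows of the members are also part of the total, here and for the elements below. Capitals mark the fixed letters, and positions are on GRCh38.p14.
CALR, chr19:12938384-12938402, minus strand: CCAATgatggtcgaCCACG
CANX, chr5:179698778-179698796, plus strand: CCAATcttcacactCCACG
CRELD2, chr22:49918554-49918572, minus strand: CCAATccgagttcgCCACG
HSP90B1, chr12:103930216-103930234, plus strand: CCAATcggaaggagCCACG
HSP90B1, chr12:103930321-103930339, minus strand: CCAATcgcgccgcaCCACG
HSPA5, chr9:125241391-125241409, minus strand: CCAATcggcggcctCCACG
PDIA6, chr2:10812853-10812871, minus strand: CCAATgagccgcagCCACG
XBP1, chr22:28800603-28800621, minus strand: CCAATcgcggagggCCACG

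The shorter element ERSE-II, ATTGG, 1 base of any kind, then CCACG, on either strand, was found in 3 members and in 0.0541% of windows, and its sites are shown for the same reason.
HERPUD1, chr16:56932025-56932035, plus strand: ATTGGgCCACG
HYOU1, chr11:119057274-119057284, plus strand: ATTGGaCCACG
HYOU1, chr11:119057380-119057390, plus strand: ATTGGaCCACG
SDF2L1, chr22:21642114-21642124, minus strand: ATTGGtCCACG

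On the strand of the gene these ERSE and ERSE-II sites began 52 to 225 bases before the start. The element UPRE (TGACGTGG, either strand), bound by spliced XBP1 and ATF6, was found in HYOU1, KDELR3, SSR3 and SSR4 and in 0.729% of windows; in HYOU1 it overlaps an ERSE-II site. The cyclic AMP response element TGACGTCA was found in CREB3L2 alone among the members (1.85% of windows), and the ETS letters CCGGAAGT, a form that many ETS factors bind, in DNAJB9, EDEM2, EDEM3, ERP44, SSR3 and SYVN1 (4.14% of windows). A match of letters is a description of these windows and not evidence of binding.

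The whole windows of 4 members are given because the results return to these genes: HSPA5 at chr9:125241294-125241593 (minus strand) and CANX at chr5:179698679-179698978 (plus strand), the first of its windows listed with the site, with an ERSE, SDF2L1 at chr22:21642052-21642351 (plus strand) with an ERSE-II, and KDELR3 at chr22:38467846-38468145 (plus strand) with a UPRE. Capitals mark the fixed letters of these elements, and each window is written on the strand of its gene.
HSPA5: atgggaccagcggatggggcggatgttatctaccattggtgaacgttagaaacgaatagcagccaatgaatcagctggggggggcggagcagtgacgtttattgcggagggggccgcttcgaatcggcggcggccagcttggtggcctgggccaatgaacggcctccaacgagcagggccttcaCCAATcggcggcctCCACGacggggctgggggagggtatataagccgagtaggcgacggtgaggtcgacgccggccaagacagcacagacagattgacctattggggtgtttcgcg
CANX: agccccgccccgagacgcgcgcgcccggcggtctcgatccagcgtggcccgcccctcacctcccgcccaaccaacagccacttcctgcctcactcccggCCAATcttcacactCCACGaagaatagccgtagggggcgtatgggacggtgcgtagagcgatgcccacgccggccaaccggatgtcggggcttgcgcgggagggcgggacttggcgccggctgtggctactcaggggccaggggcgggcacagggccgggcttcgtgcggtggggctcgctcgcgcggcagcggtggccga
SDF2L1: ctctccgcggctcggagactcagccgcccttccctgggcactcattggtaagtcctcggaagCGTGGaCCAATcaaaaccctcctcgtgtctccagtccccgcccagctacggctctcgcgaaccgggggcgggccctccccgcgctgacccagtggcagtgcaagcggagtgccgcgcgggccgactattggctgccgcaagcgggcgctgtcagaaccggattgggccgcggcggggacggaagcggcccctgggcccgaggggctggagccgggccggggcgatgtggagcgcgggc
KDELR3: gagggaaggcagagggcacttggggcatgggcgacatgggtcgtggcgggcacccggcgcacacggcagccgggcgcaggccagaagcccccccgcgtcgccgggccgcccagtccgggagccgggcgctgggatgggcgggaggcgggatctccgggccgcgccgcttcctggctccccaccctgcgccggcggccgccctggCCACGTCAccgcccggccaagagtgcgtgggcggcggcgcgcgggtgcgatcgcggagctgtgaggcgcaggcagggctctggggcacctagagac

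The libraries held 66.8 M to 83.7 M assigned reads, and between 18767 and 19194 genes had a read. Values are the deposited normalised read counts, that is reads divided by a size factor per library. ELF5 stood at 3680.1 ± 43.7 in siELF5 and 13094 ± 164 in siNC (SD, n = 3 each), 28.1% of the siNC mean (log2 fold change -1.83, SE 0.0328, limma adjusted p = 3.26e-12), so the target matched the labels of all 6 libraries. All 8 luminal epithelial markers, among them ESR1, GATA3 and KRT8, were present, with a lowest value in any library of 14004 in siELF5 and 14950 in siNC. Their sum over the list ran from 580713 to 607403 in siELF5 and from 648075 to 696452 in siNC. The list went both ways: KRT8 (-0.41) and KRT18 (-0.45) were called lower, ESR1 (0.45), FOXA1 (0.31) and GATA3 (0.15) higher, and KRT19, EPCAM and CDH1 did not pass. Of 4 fibroblast markers 2 averaged under 10, PDGFRB among them, while COL1A1 was present, and the list summed to 3372 to 3882 in siELF5 and 4222 to 5398 in siNC. The leukocyte markers PTPRC and CD3E and the endothelial markers PECAM1 and CDH5 were at or near 0, while CD68, which other cells also express, brought the leukocyte sum to 160 to 186 in siELF5 and 126 to 148 in siNC. The 3 basal markers summed to 208 to 231 in siELF5 and 171 to 184 in siNC, nearly all of it TP63. The part of such cells in the results was not tested. In RNA of whole cultures fewer cells that express a gene and less RNA per cell cannot be told apart. The labels do not say that replicates came from separate cultures, and the p-values therefore rest on a spread among libraries that may be technical alone.

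Most of the ER genes were higher after ELF5 knockdown, by small amounts. Sizes are given as log2 fold changes of siELF5 over siNC, and adjusted p-values are from limma unless said otherwise. Of the 49 members, 31 were higher and 4 lower in siELF5 (limma on log2 values, adjusted p under 0.05), and 14 did not pass. Of all 16032 genes tested, 23.8% were called higher and 23.3% lower. The median log2 fold change was 0.18 over the members and 0.00 over all genes tested, and the members ran from -0.19 (SEC23B) to 1.44 (CREB3L1). The 3 siELF5 values lay above the 3 siNC values for 34 members and below them for 5, which is 79.6% of members without overlap; of all genes tested 27.9% lay above, 28% below and 55.9% in either way. Only 6 members were called and at least 1.5-fold higher (7.77% of all genes tested): CREB3L1, SDF2L1, KDELR3, CANX, CREB3L2 and EDEM3. The members together took 1.46% ± 0.0237 of all reads in siELF5 and 1.24% ± 0.00603 in siNC (SD, n = 3 each).

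**Figure D1:**
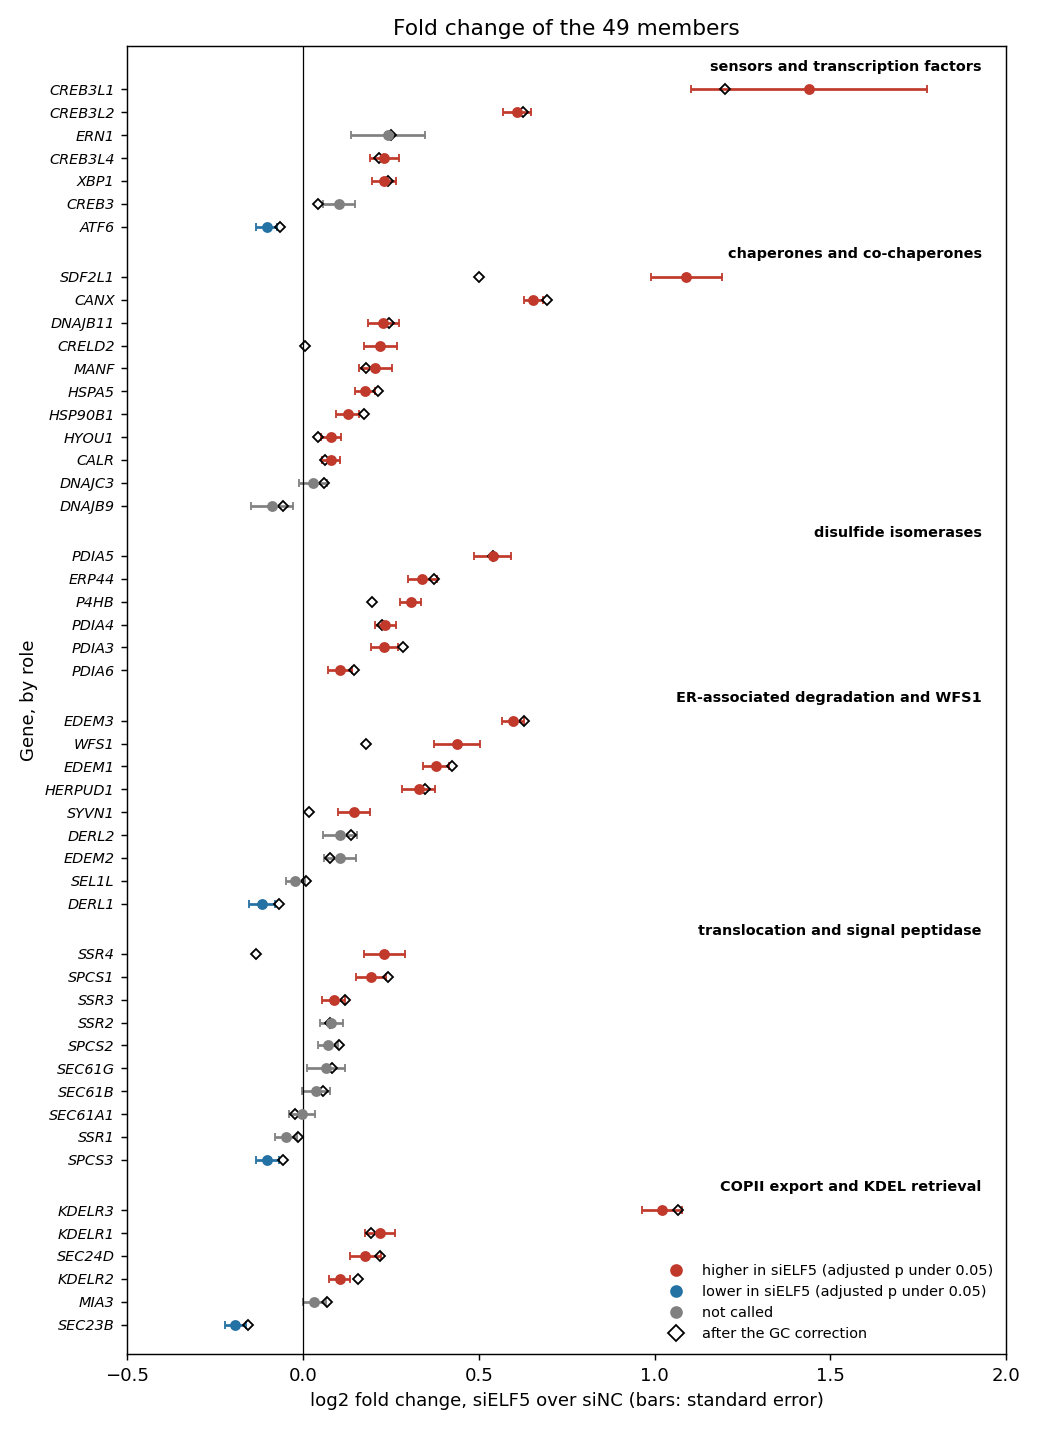
The log2 fold change of siELF5 over siNC (horizontal axis) of each of the 49 genes, by role, with its standard error; filled circles are coloured by call and open diamonds give the value after the GC correction. Circles lie mostly right of 0, with 31 genes called higher and 4 called lower, and the diamond of SSR4 lies left of 0.

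Base composition moved with the groups. A library GC score, the median deviation of the genes in the top GC decile minus that in the fifth decile, was 0.23, 0.28 and 0.22 in siELF5 replicates 1, 2 and 3 and -0.41, -0.22 and -0.07 in siNC replicates 1, 2 and 3, without overlap. Library base composition and the knockdown cannot be told apart in these 6 libraries. The members had a median transcript GC content of 47.7%, against 49.02% for all tested genes with a value, and 5 members lay above 60% (SDF2L1, SSR4, WFS1, CREB3L1 and CRELD2). After a correction for GC content in each library 30 members were higher and 2 lower, with 26 of the 31 first called higher still so. Of the 4 first called lower SEC23B alone remained, and the other lower call was SSR4, first called higher. Of all genes 20.8% were higher and 29.2% lower (50.1% called). With the GC score as a covariate 5 members were higher and none lower (3.27% and 4.07% of all genes, 7.35% called), and the standard error of KDELR3 was 0.149 with the covariate, against 0.057 without it. The 5 were CANX, CREB3L2, EDEM1, EDEM3 and KDELR3, and all 5 were also called higher without it and in all other alternatives run.

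**Figure D2:**
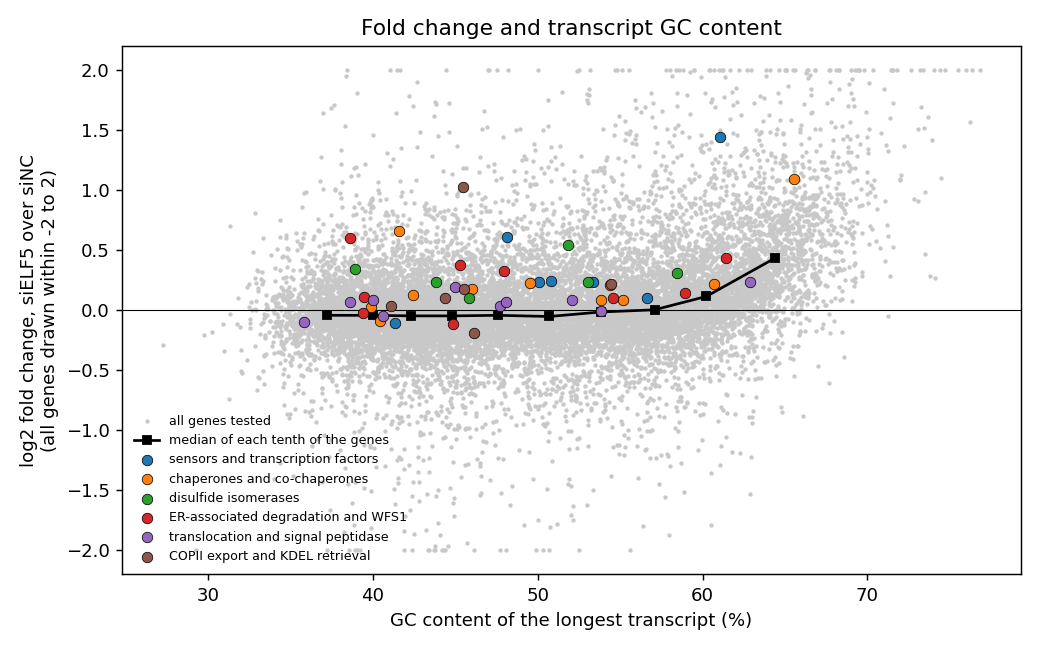
Log2 fold change of siELF5 over siNC against the GC content of the longest transcript, for all tested genes with a GC value (grey) and the 49 members (coloured by role); squares join the median of each GC decile. The line lies at -0.04 in the lowest decile and at 0.43 in the highest, and most members lie above it.

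Of the 7 sensors and transcription factors 4 were higher (57.1%) and 1 lower (14.3%), with a median of 0.23. Of all genes tested 23.8% were higher and 23.3% lower. XBP1 had 107118, 107371 and 98713 in siELF5 replicates 1, 2 and 3, against 89319, 88762 and 88755 in siNC replicates 1, 2 and 3. All siELF5 values lay above all siNC values, replicate 3 being the lowest of the siELF5 libraries (log2 fold change 0.23, SE 0.0336, limma adjusted p = 0.000119). ATF6 had 8569, 8410.5 and 8447 in siELF5 replicates 1, 2 and 3, against 9201, 9122 and 9000.5 in siNC replicates 1, 2 and 3. The groups did not overlap and siELF5 was the lower, at 93.1% of the siNC mean (log2 fold change -0.10, SE 0.0311, limma adjusted p = 0.0152), a call lost without siNC replicate 2, with equal column totals or quantile scaling, and after the GC correction (-0.07, adjusted p = 0.065). ERN1, the IRE1 kinase and endoribonuclease, had 761, 615 and 828 in siELF5 replicates 1, 2 and 3, against 592, 587 and 672 in siNC replicates 1, 2 and 3. These groups overlapped and the difference did not pass (log2 fold change 0.24, SE 0.105, limma adjusted p = 0.0762), although it did after the GC correction (0.25, adjusted p = 0.0399), without siNC replicate 3 and without siELF5 replicate 2.

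The relatives of ATF6 in the CREB3 family, which are also anchored in the ER membrane and released by cutting, were higher or did not pass. CREB3L2, which in cartilage cells of mice is known to raise COPII genes, had 3703, 3806 and 3677 in siELF5 replicates 1, 2 and 3, against 2418, 2448 and 2469 in siNC replicates 1, 2 and 3. Its groups lay far apart relative to their spread (log2 fold change 0.61, SE 0.0404, limma adjusted p = 1.47e-07). CREB3L4 was higher by 0.23 (SE 0.0415), and for CREB3 the log2 fold change was 0.10 (adjusted p = 0.0816). CREB3 was called higher with equal column totals. CREB3L1, known as OASIS and given in full after its values were seen, gave the largest fold change of the members from very few reads: 56.1, 47.1 and 48.3 in siELF5 replicates 1, 2 and 3, against 11.5, 17.5 and 28.3 in siNC replicates 1, 2 and 3. It was called higher (log2 fold change 1.44, SE 0.337, limma adjusted p = 0.00355), with a GC content of 61.1%, and the value was -0.21 with the GC score as a covariate (adjusted p = 0.918). Per kilobase of principal transcript, CREB3L4 held 66.9% ± 0.994 in siELF5 and 66.5% ± 0.969 in siNC (SD, n = 3 each) of the summed level of these 4 genes, and CREB3L2 held 7.18% ± 0.411 in siELF5 and 5.49% ± 0.119 in siNC (SD, n = 3 each).

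Most chaperones rose: 9 of 11 were higher (81.8%, against 23.8% of all genes tested), 0 were lower, and the median log2 fold change was 0.18. HSPA5, the HSP70 chaperone BiP that also holds the sensors inactive, had 101832, 102806 and 97110.3 in siELF5 replicates 1, 2 and 3, against 88891, 88222 and 89819.5 in siNC replicates 1, 2 and 3. The groups did not overlap, and siELF5 was at 113% of the siNC mean (log2 fold change 0.18, SE 0.029, limma adjusted p = 0.000299). SDF2L1, a partner of the HSP40 protein DNAJB11, had 2143, 2317 and 1779.8 in siELF5 replicates 1, 2 and 3, against 877, 932 and 1116 in siNC replicates 1, 2 and 3. It stood well above siNC in all siELF5 libraries, with replicate 3 lowest (log2 fold change 1.09, SE 0.1, limma adjusted p = 2.69e-06); it is the member richest in GC (65.5%), and its value came to 0.50 once GC content was corrected for (adjusted p = 1.28e-05) and to 0.54 under the GC score covariate (adjusted p = 0.0957).

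The lectin chaperones CANX and CALR, which hold glycoproteins in the folding cycle, differed in size of change. CANX, given in full after its values were seen, had 109355, 110499 and 108639 in siELF5 replicates 1, 2 and 3, against 70997, 68192 and 69452 in siNC replicates 1, 2 and 3. The siELF5 libraries differed little from each other and stood at 157% of the siNC mean (log2 fold change 0.65, SE 0.027, limma adjusted p = 2.58e-09), and the log2 value stayed between 0.64 and 0.71 in 19 alternatives. CALR was higher by only 0.08 (SE 0.0263, adjusted p = 0.0236), a call that was lost after the GC correction (0.06, adjusted p = 0.0768), with quantile scaling, without the trend and without siNC replicate 2 or 3 or siELF5 replicate 1 or 2.

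DNAJB11, an HSP40 partner of HSPA5, was higher by 0.23 (SE 0.0444); MANF, a small factor held in the ER and released under stress, by 0.21 (SE 0.0469). HSP90B1, the ER form of HSP90, was higher by 0.13 (SE 0.0322). HYOU1, a nucleotide exchange factor for HSPA5, was higher by 0.08 (adjusted p = 0.0324), and by 0.04 after the GC correction (adjusted p = 0.178). The call was also lost with quantile scaling, without the trend and without siNC replicate 1, 2 or 3, siELF5 replicate 1 or siELF5 replicate 3. CRELD2, a secreted factor induced by ER stress, was higher by 0.22 (adjusted p = 0.00209), with 0.00 after the GC correction (adjusted p = 0.954). DNAJB9 and DNAJC3, HSP40 proteins induced in the unfolded protein response, did not pass, with log2 fold changes of -0.09 (adjusted p = 0.245) and 0.03 (adjusted p = 0.587). For DNAJB9, a known target of spliced XBP1, the siELF5 values of 1773 to 1825 overlapped the siNC values of 1810 to 2095.

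**Figure D3:**
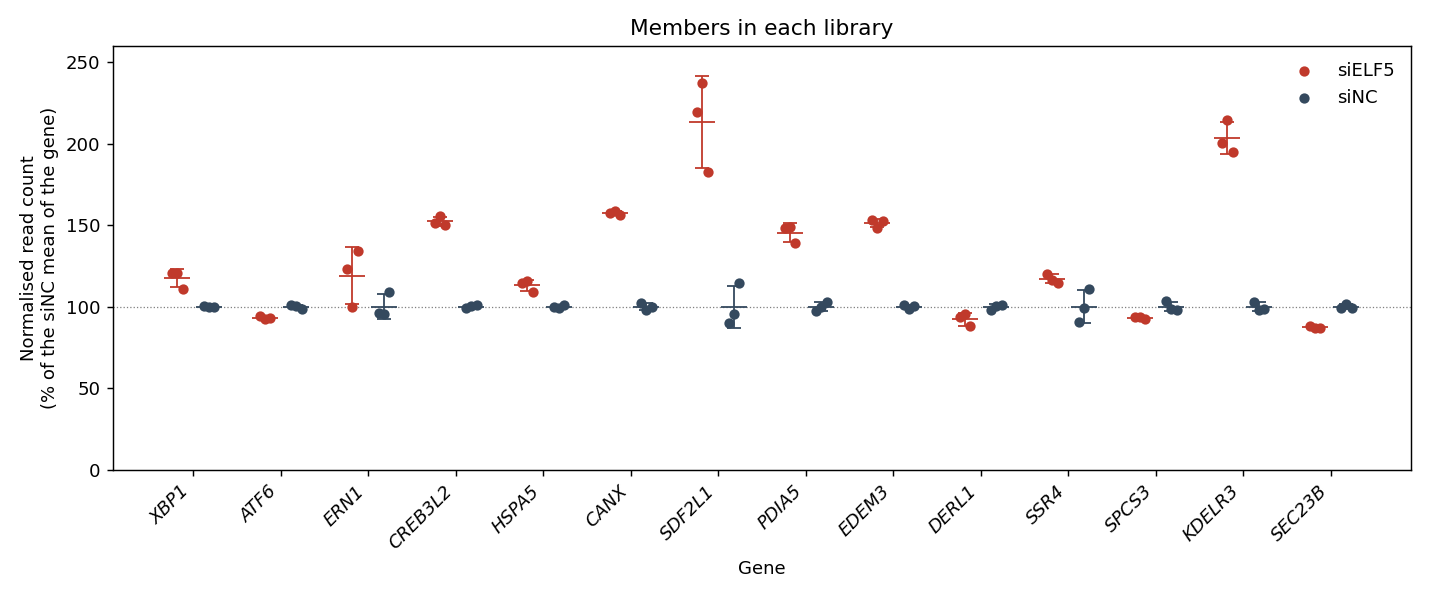
Normalised read count of 14 members in each library as a percentage of the gene's siNC mean, siELF5 left and siNC right for each gene; points are libraries, horizontal marks are means and bars are SD (n = 3). The siELF5 means of KDELR3 and SDF2L1 lie at 203% and 213%, while ATF6, DERL1, SPCS3 and SEC23B lie below 100%.

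All 6 disulfide isomerases, the enzymes that form and shuffle disulfide bonds in the ER, were higher (23.8% of all genes tested), with a median of 0.27. PDIA5, a thioredoxin-domain isomerase linked to the activation of ATF6, had 2113, 2118 and 1978 in siELF5 replicates 1, 2 and 3, against 1381, 1423 and 1463 in siNC replicates 1, 2 and 3. The groups did not overlap (log2 fold change 0.54, SE 0.0525, limma adjusted p = 4.23e-06). ERP44, which retains clients in the early secretory pathway, was higher by 0.34 (SE 0.0409), P4HB, the classic protein disulfide isomerase, by 0.31 (SE 0.0295), PDIA4 by 0.23 (SE 0.0301) and PDIA3, the partner of CANX and CALR, by 0.23 (SE 0.0386). PDIA6 was higher by 0.10 (adjusted p = 0.0261), a call lost without the trend and without siNC replicate 2 or 3 or siELF5 replicate 1 or 2. After the GC correction all 6 were still called higher. With the GC score as a covariate 0 of 6 passed, with log2 fold changes from 0.15 (PDIA4) to 0.41 (PDIA5, adjusted p = 0.0739). PDIA3 has the processed pseudogenes PDIA3P1 and PDIA3P2, and in GENCODE 29 29.7% of the exon bases of PDIA6 are shared with ATP6V1C2 on a kit that does not mark strand, so these counts are less certain. Shared exon bases made up 20.3% in P4HB and 21.5% in PDIA3. Among the chaperones they made up 34.7% in DNAJB11, 14.2% in CALR and 14.1% in HYOU1. Pseudogenes are also annotated for SPCS2 (4), SSR1 (2), SSR4 (1) and XBP1 (1).

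Among ER-associated degradation genes and WFS1, 5 of 9 were higher (55.6%) and 1 lower (11.1%), with a median of 0.15, against 23.8% and 23.3% of all genes tested. EDEM3, a mannosidase that trims glycans of misfolded glycoproteins for disposal, had 12607, 12193 and 12518 in siELF5 replicates 1, 2 and 3, against 8280.4, 8111 and 8268 in siNC replicates 1, 2 and 3. The siELF5 values all lay far above siNC (log2 fold change 0.60, SE 0.0312, limma adjusted p = 1.94e-08). EDEM1 was higher by 0.38 (SE 0.037), and EDEM2, which begins the trimming, did not pass (0.10, adjusted p = 0.0736). EDEM2 was called higher with equal column totals. Per kilobase of principal transcript, EDEM3 held 41.4% ± 0.499 in siELF5 and 35.7% ± 0.303 in siNC (SD, n = 3 each) of the summed level of these mannosidases, and EDEM2 held 27.1% ± 0.607 in siELF5 and 32.8% ± 0.81 in siNC (SD, n = 3 each).

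The genes of the retrotranslocation channel and its ligase gave smaller values. DERL1, a derlin of the channel, had 9657, 9857 and 9082 in siELF5 replicates 1, 2 and 3, against 10139, 10386 and 10458 in siNC replicates 1, 2 and 3. The siELF5 libraries were all lower (log2 fold change -0.12, SE 0.0366, limma adjusted p = 0.0195), a call lost without siNC replicate 2 or 3 or siELF5 replicate 3, with equal column totals, quantile scaling or no trend, and after the GC correction (-0.07, adjusted p = 0.106). For DERL2 the value was 0.11 (adjusted p = 0.0876), and it was called higher after the GC correction (0.14, adjusted p = 0.0103), without siELF5 replicate 3 and with equal column totals. SEL1L, the scaffold of the ligase SYVN1, had -0.02 (adjusted p = 0.531), and SYVN1 itself was higher by 0.15 (adjusted p = 0.0185), with 0.02 after the GC correction (adjusted p = 0.714) and no call without the trend, siNC replicate 1 or 2 or siELF5 replicate 3. HERPUD1, an ER stress-induced adaptor of this complex, was higher by 0.33 (SE 0.0461). WFS1, an ER membrane protein that is lost in Wolfram syndrome and restrains ATF6, was higher by 0.44 (SE 0.0646), and with a GC content of 61.4% by 0.18 after the GC correction (adjusted p = 0.000826).

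Of the translocation and signal peptidase genes 3 of 10 were higher, 1 was lower and 6 did not pass, with a median of 0.07. The share called higher, 30%, lay near the 23.8% of all genes tested, and 10% were lower, against 23.3%. None of the 3 SEC61 channel subunits passed, with log2 fold changes of -0.0037 for SEC61A1, 0.04 for SEC61B and 0.07 for SEC61G (adjusted p = 0.946, 0.489 and 0.343). SEC61G alone passed without siELF5 replicate 3. Per kilobase of principal transcript they stood at 6999 ± 342, 6882 ± 186 and 6858 ± 566 in siELF5 and at 7013 ± 158, 6707 ± 166 and 6541 ± 120.2 in siNC for SEC61A1, SEC61B and SEC61G in that order (SD, n = 3 each). These channel subunits lay within their spread of each other in siELF5.

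SSR4, a subunit of the translocon-associated TRAP complex, had 6545, 6365 and 6247 in siELF5 replicates 1, 2 and 3, against 4929.6, 5409 and 6032 in siNC replicates 1, 2 and 3. The siNC libraries differed among themselves more than the siELF5 libraries did (log2 fold change 0.23, SE 0.0588, limma adjusted p = 0.00591). The call of SSR4 was lost without the trend. Its GC content is 62.9%, and after the GC correction SSR4 was called lower instead, at -0.13 (adjusted p = 0.00348). Of its exon bases 16.2% are shared with IDH3G. SSR3 was higher by 0.09 (adjusted p = 0.0417), a call lost without siNC replicate 2 or 3, without siELF5 replicate 1 or 2, without the low-value filter and without the trend. SSR1 and SSR2 had -0.05 and 0.08 (adjusted p = 0.213 and 0.059). SSR2 passed after the GC correction (0.08, adjusted p = 0.0349), without siNC replicate 1, without siELF5 replicate 2 and under both scalings.

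SPCS3, a subunit of the signal peptidase that removes signal peptides, had 9566, 9549.7 and 9442 in siELF5 replicates 1, 2 and 3, against 10555, 10074 and 10022 in siNC replicates 1, 2 and 3. It was lower in every siELF5 library (log2 fold change -0.10, SE 0.0328, limma adjusted p = 0.022), a call lost without siNC replicate 1 or 2 or siELF5 replicate 1, under both scalings and without the trend, and after the GC correction (-0.06, adjusted p = 0.115). SPCS1 was higher by 0.19 (adjusted p = 0.00213), but 64% of its exon bases are shared with NEK4 and GLT8D1. SPCS2 did not pass (0.07, adjusted p = 0.0578), but was called higher after the GC correction (0.10, adjusted p = 0.0046), under both scalings and with the higher filter.

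The KDEL receptors, which return escaped chaperones with a KDEL-like tail to the ER, were all higher. KDELR3 had 1986, 2122 and 1932 in siELF5 replicates 1, 2 and 3, against 1021, 972 and 978 in siNC replicates 1, 2 and 3. Every siELF5 library lay far above every siNC library, at 203% of the siNC mean (log2 fold change 1.02, SE 0.057, limma adjusted p = 3.57e-08). It lay between 0.97 and 1.08 in all 19 alternatives. KDELR1 was higher by 0.22 (SE 0.0433) and KDELR2 by 0.10 (SE 0.0306, adjusted p = 0.0138), and the call of KDELR2 was lost without the trend and without siNC replicate 2, siELF5 replicate 1 or siELF5 replicate 2. Per kilobase of principal transcript, KDELR3 held 6.43% ± 0.196 in siELF5 and 3.6% ± 0.107 in siNC (SD, n = 3 each) of the summed level of the 3 receptors, and KDELR2, the most abundant per length, held 61% ± 0.52 in siELF5 and 64.6% ± 0.692 in siNC (SD, n = 3 each).

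Of the 6 export and retrieval genes 4 were higher (66.7%) and 1 lower (16.7%), with a median of 0.14, against 23.8% and 23.3% of all genes tested. SEC23B, an inner coat subunit of COPII vesicles, had 12050.1, 11843 and 11868 in siELF5 replicates 1, 2 and 3, against 13540.0, 13869.6 and 13484 in siNC replicates 1, 2 and 3. It was lower in all siELF5 libraries (log2 fold change -0.19, SE 0.0298, limma adjusted p = 0.000181) and remained so after the GC correction (-0.16, adjusted p = 0.000132). SEC24D, its cargo-binding partner, was higher by 0.18 (SE 0.0441), and MIA3, known as TANGO1, which loads bulky procollagen into carriers, did not pass (0.03, adjusted p = 0.459).

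Across the 31 members called higher, siELF5 replicate 3 was the lowest of the siELF5 libraries for 23, replicate 1 for 4 and replicate 2 for 4. The median over members of the log2 value minus the siNC mean was 0.16, 0.17 and 0.11 in siELF5 replicates 1, 2 and 3. Without siELF5 replicate 3 the members called were 31 higher and 3 lower (22.7% and 22.5% of all genes tested in that fit). At the same threshold the authors' deposited table called 31 members higher and 4 lower, and 3562 genes higher and 3541 lower among all 26364.

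The 10 members with an ERSE or ERSE-II in the promoter window were all called higher, at a median of 0.20 on the log2 scale. Of the other 34 members searched 17 were higher and 3 lower, with a median of 0.13. These 34 had no exact match in the window, and sites farther away or with a changed letter were not looked for. Of all genes tested 23.8% were higher and 23.3% lower. As shown with the sequences above, the 10 with a site include HSPA5, XBP1, CANX and SDF2L1. A call depends on the standard error as well as on the size of the change. CALR, with a site, passed at 0.08 (SE 0.0263), while ERN1, without a match, did not pass at 0.24 (SE 0.105). The counts of calls therefore do not compare sizes of change alone. After the GC correction CALR, CRELD2 and HYOU1 lost the call. Among the other 34, SSR4 (then called lower) and SYVN1 lost it, and DERL2, ERN1, SPCS2 and SSR2 gained it. With the GC score as a covariate CANX alone of the 10 was called, and CREB3L2, EDEM1, EDEM3 and KDELR3 of the others. The contrast in counts thus varied with the fit, and its cause was not tested. Among 22 tested genes that are not members but have an ERSE or ERSE-II, 5 were higher and 5 lower, with a median of 0.03. Named after their values were seen, the higher ones were CLEC4F (1.38), SERP1 (0.42), ERO1B (0.31), NUCB1 (0.20, and 0.00 after the GC correction) and SHCBP1 (0.17). The lower ones were NAV2 (-1.06), SYNPO (-0.84), SETD3 (-0.29), EIF2A (-0.22) and PLS3 (-0.15). These genes do not all have separate sites: SERP1 and EIF2A share the same ERSE (chr3:150546710-150546728) and went opposite ways. GYS1 and RUVBL2 share an ERSE-II, and ALG12 (0.02, not called) shares the ERSE printed for CRELD2. All 4 members with a UPRE were also called higher, SSR4 among them. Of the 6 with the ETS letters EDEM3, ERP44, SSR3 and SYVN1 were higher while DNAJB9 and EDEM2 did not pass. After the GC correction HYOU1 (0.04) and SYVN1 (0.02) lost the call and SSR4 was called lower (-0.13). Calls among genes outside the members with a UPRE or the ETS letters were not counted, so these counts have only the share of all genes tested (23.8% higher) beside them.

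The 7-base motifs CACTAAC and ACTAACA, an overlapping pair of 3' UTR words picked with earlier results of these data known, were also looked up. One or the other was found in the 3' UTR of 7 of 49 members (14.3%), against 11.3% of 13816 tested genes searched. Of those 7 members, CREB3L1, CREB3L2, EDEM3 and KDELR2 were higher, SPCS3 was lower, and SEL1L and SSR1 did not pass. All genes tested were called higher in 23.8% and lower in 23.3%, and all 49 members in 63.3% and 8.2%. Calls among genes outside the members with these motifs were not counted, and a link of the motifs to the changes was not tested.

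Of 89 tested genes of the secretory pathway outside the members, taken from 6 further lists, 36 were higher (40.4%) and 17 lower (19.1%), with a median of 0.07. The shares of all genes tested were 23.8% higher and 23.3% lower. After the GC correction 42 of these pathway genes were higher and 22 lower (20.8% and 29.2% of all genes). With the GC score as a covariate 9 were higher and 2 lower (3.27% and 4.07% of all genes). Calls of single genes from these lists are from the main fit unless said otherwise. The PERK arm and the site proteases were divided: 3 of 8 were higher (37.5%) and 4 lower (50%). After the GC correction 3 were higher and 5 lower, and with the GC score as a covariate 1 was higher (MBTPS1) and 0 lower. PPP1R15A, the phosphatase subunit GADD34 that lets translation restart, was at 799 ± 29.2 in siELF5 and 1111 ± 19.4 in siNC (SD, n = 3 each), and fell by 0.47 on the log2 scale (SE 0.0625, 5.23e-05 as limma adjusted p). ATF4, the factor favoured by PERK, fell by 0.14 (SE 0.0357), its target DDIT3, the CHOP factor of ER stress death, by 0.19 (SE 0.0546), and MBTPS2 by 0.13 (SE 0.0313). The higher genes were MBTPS1 (0.21), ATF6B, a close relative of ATF6 (0.17), and EIF2AK3 (0.16). TRIB3, another target of ATF4, did not pass (0.11, adjusted p = 0.0835) but was called higher with equal column totals and without siNC replicate 3, and lower after the GC correction (-0.12, adjusted p = 0.0206). The call of DDIT3 was lost without siNC replicate 2 or siELF5 replicate 1, and that of EIF2AK3 without siELF5 replicate 2. ERN2 and CREB3L3 were below the filter. ATF4, DDIT3 and EIF2AK3 are named after their values were seen.

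**Figure D4:**
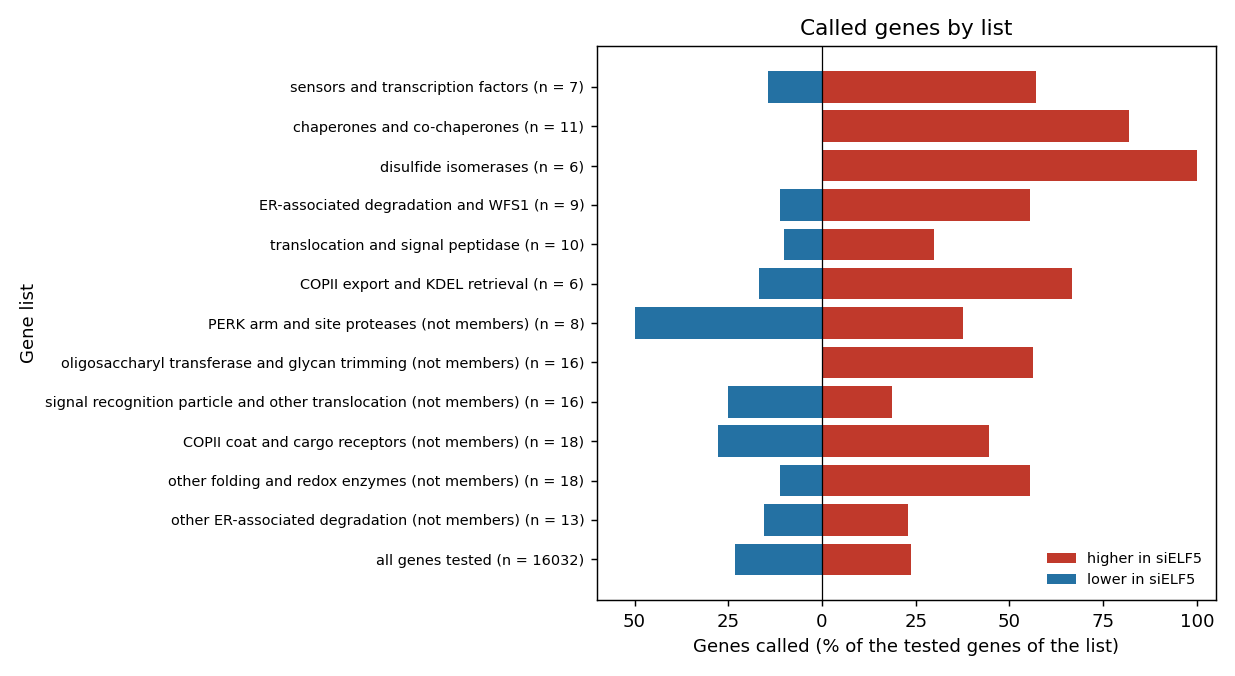
Share of the tested genes of each list that was called lower (bars to the left) or higher (bars to the right) in siELF5, with all genes tested at the bottom. The isomerases reach 100% and the chaperones 81.8% higher, against 23.8% of all genes, and the list of the PERK arm has more lower than higher calls.

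Of 18 folding and redox genes outside the members 10 were higher (55.6%) and 2 lower (11.1%), against 23.8% and 23.3% of all genes tested. TXNDC12, an ER thioredoxin, was higher by 0.60 (SE 0.0384) and AGR2, a disulfide isomerase of secretory epithelia, by 0.56 (SE 0.0288). HSPA13, an HSP70 relative of the ER, fell by 0.37 (SE 0.0331) and DNAJC10, a reductase for misfolded proteins, by 0.12 (SE 0.0334). Of 16 oligosaccharyl transferase and glycan trimming genes 9 were higher (56.25%) and 0 lower. Among the higher were PRKCSH, a subunit of glucosidase II (0.34, or 0.10 after the GC correction), and RPN1 (0.21).

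Targeting, export and disposal genes outside the members were mixed. In the list of the signal recognition particle and other translocation genes 3 of 16 were higher (18.75%) and 4 lower (25%). These shares lay near those of all genes tested, 23.8% and 23.3%. SERP1, an ER stress-induced protein of the translocon, was higher by 0.42 (SE 0.0466) and SRPRB, a receptor subunit, by 0.20. SEC61A2, the paralog of the channel gene SEC61A1, fell by 0.79 (SE 0.0418), and TRAM2 by 0.26. Of 18 COPII and cargo receptor genes 8 were higher (44.4%) and 5 lower (27.8%). SURF4, a receptor for soluble cargo, was higher by 0.56 (SE 0.029) and TMED9 by 0.33. SAR1B, the GTPase that starts the coat, fell by 0.30 (SE 0.035) and SEC23A, the paralog of SEC23B, by 0.20. Of 13 other degradation genes 3 were higher (23.1%) and 2 lower (15.4%), no larger shares than those of all genes tested. FAM8A1, a partner of SYVN1, was higher by 0.74 (SE 0.0533) and NPLOC4, a cofactor of VCP, by 0.31. The ubiquitin-conjugating enzymes UBE2J1 and UBE2G2 were lower, with log2 fold changes of -0.36 and -0.21.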

How the data were processed

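T47D RNA was sequenced from TruSeq v2 libraries, a kit that does not mark strand. STAR 2.6, featureCounts 1.6.3 (Subread), DESeq2 1.22.1 and build hg19 are named in the submitters' processing notes; their order, settings and annotation are unstated in these notes. The deposited per-library values are signal values: every non-zero value is a whole multiple of the smallest in its column (100%, tolerance 1e-06), so they are gene counts divided by a size factor, and whole reads were recovered. The log2 fold change with its standard error, the test score, and the p-value columns are the authors' deposited DESeq2 results, per the file headers, and entered no test here.

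The main test was limma 3.58.1 (R 4.3.3) as a two-sided limma-trend fit to log2(value + 1) of the 16032 genes whose mean reached 10, with Benjamini-Hochberg adjustment over all of them and a threshold of 0.05. The pseudocount understates fold changes of low genes. The script was tested on simulated data. edgeR 4.0.16 and DESeq2 1.42.0 on the recovered reads, other pseudocounts, filters and scalings, left-out libraries, a replicate block and GC adjustments were alternatives. For the GC correction a loess curve (span 0.3) of each library's deviations on transcript GC content was subtracted, with GC from the longest GENCODE 29 transcript, known for 15426 tested genes (96.2%). Levels per kilobase use the APPRIS principal transcript. Given in full were XBP1, ATF6, ERN1, HSPA5 and, in each role, the largest rise and the largest fall past the threshold among genes averaging 100 or more, with CANX and CREB3L1 added after their values were seen; other members are given by fold change, and from each list of other genes up to 2 in each direction with the smallest adjusted p. The members and lists were chosen with earlier results of these data known, so no set test was made.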

Additional observations from a re-analysis of the deposited data

How the results depend on the processing

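Of 49 members, 31 higher and 4 lower became 36 and 1 with equal column totals (27.3% of all genes higher and 19.5% lower), 31 and 1 with quantile normalization (21.6% and 24.9%), 23 and 2 without the trend (20.1% and 19.5%), 30 and 2 after the GC correction, also with the replicate block, and 5 and 0 when the GC score of the libraries entered as a covariate; edgeR, DESeq2 and both other pseudocounts gave 31 and 4, with 7578 (edgeR) and 7128 (DESeq2) genes called in all. Leaving out 1 library gave 25 to 31 higher, 1 to 4 lower, 6167 to 7324 genes called in all and a median of 0.15 to 0.18 over the members, the fewest members called (25 and 1) being without siNC replicate 2 (20.1% and 18.3% of all genes). The median was 0.21 with equal column totals and 0.12 with the GC score, and the genes called in all were 1178 with the GC score, against 7559. Equal column totals moved the median of all genes by 0.03 and quantile normalization by -0.03.

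With the GC score the log2 fold change changed sign for CREB3 (-0.0125), CREB3L1 (-0.21), DNAJB9 (0.22), SEL1L (0.0219), SYVN1 (-0.0915), WFS1 (-0.0221), SSR1 (0.065), SSR4 (-0.17), SPCS3 (0.00203), TRIB3 (-0.079) and NUCB1 (-0.11). After the GC correction, with and without the block, it did so for SSR4 (-0.13, called lower), TRIB3 (-0.12, called lower) and SEL1L (0.0082). SEL1L was 0.0093 and SEC61A1 0.028 with equal column totals, SEC61A1 was 0.0041 with quantile normalization, and without a library SEC61A1 ran from -0.0339 to 0.0355. The cause of these changes was not tested.

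Same-numbered libraries did not deviate together (correlations of 0.01, -0.03 and -0.06 for replicates 1, 2 and 3), and not every library correlated best with its own number, so the numbers were not taken as pairs; with the replicate block 32 members were higher and 4 lower, ERN1 being the addition, and 7174 genes were called.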
